A study of Homo sapiens with 15 samples.

Results

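PLAU, PLAT, PLAUR, SERPINE2, SERPINB2 and SERPINB5 were followed by their gene symbols through an RNA-seq table of 60675 genes. Each symbol matched 1 gene, so the set holds 6 of 60675 genes, and all 6 passed the filter on low counts that left 19535 genes for testing. The libraries came from HT1080, an established human fibrosarcoma cell line, and numbered 15, with 3 biological replicates in each of 5 groups. 6CD1m cells (KDAC6H216A) and 6CD2m cells (KDAC6H611A), with missense mutations in the first and the second catalytic domain of endogenous KDAC6, respectively, had received 1 μM of the KDAC6-selective inhibitor Tubastatin A for 2 days. 8CDm cells (KDAC8H143A), in which endogenous KDAC8 carries an inactivating missense mutation, had received 5 μM of the KDAC8-selective inhibitor PCI-34051 for 2 days. In the remaining groups, unedited (WT) cells had been kept on 1 μM Tubastatin A or on 5 μM PCI-34051 for 14 days. Every group had therefore been exposed to an inhibitor, and neither untreated cells nor WT cells with a 2-day treatment are analysed here. Where an edited line was compared with WT cells on the same inhibitor, the effects of the line and of the time on inhibitor cannot be told apart. The lines were made by CRISPR/Cas9 editing, and whether each descends from 1 clone is not given in the sources used here. The study asks how cells with an inactivated KDAC differ from cells given an inhibitor of that KDAC.

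The plasminogen activator system turns the zymogen plasminogen into plasmin, a protease that dissolves fibrin and digests extracellular matrix at the cell surface. Urokinase (PLAU) and tissue-type plasminogen activator (PLAT) are the activating enzymes, and the GPI-anchored receptor PLAUR holds urokinase at the membrane. Serpins trap such proteases in an irreversible complex. SERPINE2 (protease nexin-1) is secreted and inhibits thrombin, urokinase and tissue-type activator, and SERPINB2 (plasminogen activator inhibitor type 2) inhibits urokinase and is mostly retained in the cell. SERPINB5 (maspin) has the serpin fold but does not act as a classical protease inhibitor, and is known as an epithelial gene with low or absent expression in many tumors. HT1080 cells are a common model of urokinase-dependent matrix degradation and invasion.

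SERPINB2 and SERPINB5 lie about 0.395 Mb apart on chromosome 18 and are the genes of the set that had no reads in a whole group of libraries, so their sequences are shown first. Upstream windows of 250 bases were taken from RefSeq promoters (GRCh38.p14) and read in the direction of the gene. The window of SERPINB2, at chr18:63887455-63887704 on the plus strand, holds 1 AP-1 motif (TGANTCA) and 1 TATA motif (TATAAA), both in capitals.
SERPINB2 upstream: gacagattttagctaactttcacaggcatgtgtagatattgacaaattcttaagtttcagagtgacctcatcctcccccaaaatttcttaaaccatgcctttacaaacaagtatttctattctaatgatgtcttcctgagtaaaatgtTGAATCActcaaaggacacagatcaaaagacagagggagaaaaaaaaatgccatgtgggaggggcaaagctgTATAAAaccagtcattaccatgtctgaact
An AP-1 motif was present in 3 of the 7 windows searched, which cover 5 genes because PLAU and SERPINE2 have more than 1 RefSeq start. No window of PLAT was searched, so the motif and CG counts say nothing about PLAT. These stretches show the motif with 11 bases on either side.
SERPINB2: gagtaaaatgtTGAATCActcaaaggaca
SERPINB5: taacttcagccTGAATCAtttctttcaat
PLAUR: tcacaactccaTGAGTCAgggccgagcca
The capitals mark the motif, which SERPINB2 (chr18:63887592-63887620, plus strand) and SERPINB5 (chr18:63476801-63476829, plus strand) share letter for letter and which differs in PLAUR (chr19:43670338-43670366, minus strand). It starts 102 bases before the RefSeq start of SERPINB2, 146 bases before that of SERPINB5 and 186 bases before that of PLAUR. The SERPINB5 and PLAUR stretches overlap first exons of other transcripts in GENCODE 29. Of 35116 RefSeq windows of this length, searched on both strands, 6.57% held TGANTCA, 10.7% held TATAAA and 42.6% held the SP1 box GGGCGG. The matches of different motifs did not overlap in these windows, and the SP1 boxes of SERPINB5 share 1 letter. The windows differed in CG dinucleotides, with 0 for SERPINB2, 13 for SERPINB5, 13 for PLAUR, 4 and 24 for the starts of PLAU, and 6 and 28 for those of SERPINE2. The median over all windows was 11, and 6.06% had 0. SP1 boxes were found in the window of SERPINB5, in both of SERPINE2 and in the CG-rich one of PLAU. These matches describe the letters of the windows, and binding to them was not measured.

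CPM are counts per 1000000 counts of the library size after TMM scaling, a level that can be compared between groups for 1 gene but not between genes. A difference is a log2 fold change from edgeR's quasi-likelihood test, given ± its SE, and a gene is called when its Benjamini-Hochberg adjusted p over all 19535 genes is under 0.001, the false discovery rate of the study. Means are given ± SD of 3 libraries. Libraries held 10932455 to 19983710 counts (median 17551887), and the 6CD1m libraries were the shallowest, with 10932455 to 14068244. A gene with no more than 3 counts in any library of a group is at the floor of that group, and a fold against a group at 0 is a bound computed from 3 counts per library. Such bounds take the mean of the other group as measured. They cover the counting error of the group at 0 only, and not the spread between libraries. HDAC6 was measured at 12.4 to 34.2 CPM and HDAC8 at 12.6 to 19.8 CPM, so that both transcripts were present in all libraries, and these levels do not check a missense mutation. HDAC6 was lowest in 6CD1m cells (13.1 ± 0.992 CPM), where all libraries were below those of the other groups. It was 24.4 ± 1.27 CPM in 6CD2m and 25.7 ± 2.37 CPM in WT cells on Tubastatin A, and its part in the values of the set was not tested. Of 6 mesenchymal markers, summed levels ran from 3836 to 7232 CPM, lowest in 6CD2m cells (3836 to 4364). VIM and FN1 made up most of the sum, and THY1 and COL1A2 reached at most 1.68 and 1.85 CPM. FN1 ran from 425 ± 53.0 CPM in 6CD2m to 3023 ± 66.0 CPM in 8CDm cells. EPCAM, CDH1, PTPRC and CD3E were at or under the floor in every library, and the 4 epithelial markers summed to at most 14.0 CPM and the 4 blood markers to at most 3.42 CPM. The 3 endothelial markers summed to 2.76 to 3.49 CPM in 6CD2m and 8CDm cells and to 0.258 to 1.30 CPM in the other groups, and their part in the values of the set was not tested. In bulk RNA, fewer cells with a transcript and less transcript per cell cannot be told apart.

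In a joint test of all 5 groups, 6 of 6 genes were called, beside 24.6% of all genes tested. With replicate 2 or replicate 3 left out of every group 3 of 6 were called (PLAT, SERPINB2 and SERPINB5). The calls over all 19535 genes fell as well, from 4807 to 581 without replicate 2 and 744 without replicate 3, and were 9024 without replicate 1. PLAUR was not called with the replicate number as a block or with GC offsets. In 6CD2m versus WT cells on Tubastatin A, 3 of the 6 were lower (PLAUR, SERPINB2 and SERPINB5) and the other 3 were not called, where 7.22% of all genes were lower and 4.6% higher. With upper-quartile scaling, the split over all genes was 1228 lower and 1211 higher, against 1410 and 899. In 6CD1m versus WT cells, SERPINB2 alone was called, and it was lower; 0.522% of all genes were lower and 0.271% higher. Between the lines with a KDAC6 mutation, which shared inhibitor, dose and duration, PLAU and SERPINB2 were higher and SERPINB5 was lower in 6CD2m cells, beside 6.65% of all genes higher and 6.54% lower. In 8CDm versus WT cells on PCI-34051, SERPINE2 was higher, and PLAT and SERPINB2 were lower, with backgrounds of 4.7% and 6.27%. PLAU and PLAT were higher and SERPINE2 and SERPINB5 lower in 6CD2m on Tubastatin A than in 8CDm on PCI-34051, where 5.6% of genes were higher and 4.37% lower. WT cells on Tubastatin A and on PCI-34051 differed in 0 of 6 genes in edgeR, beside backgrounds of 0.333% higher and 0.087% lower. DESeq2 also called 0 of the 6, and 675 of all 19535 genes. An unadjusted edgeR p under 0.05 was found for 3 of the 6, and for 5854 of all 19535 genes. Groups are shared between these comparisons, as 6CD2m libraries enter 3 of them and each WT group enters 2 or 3.

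**Figure D1:**
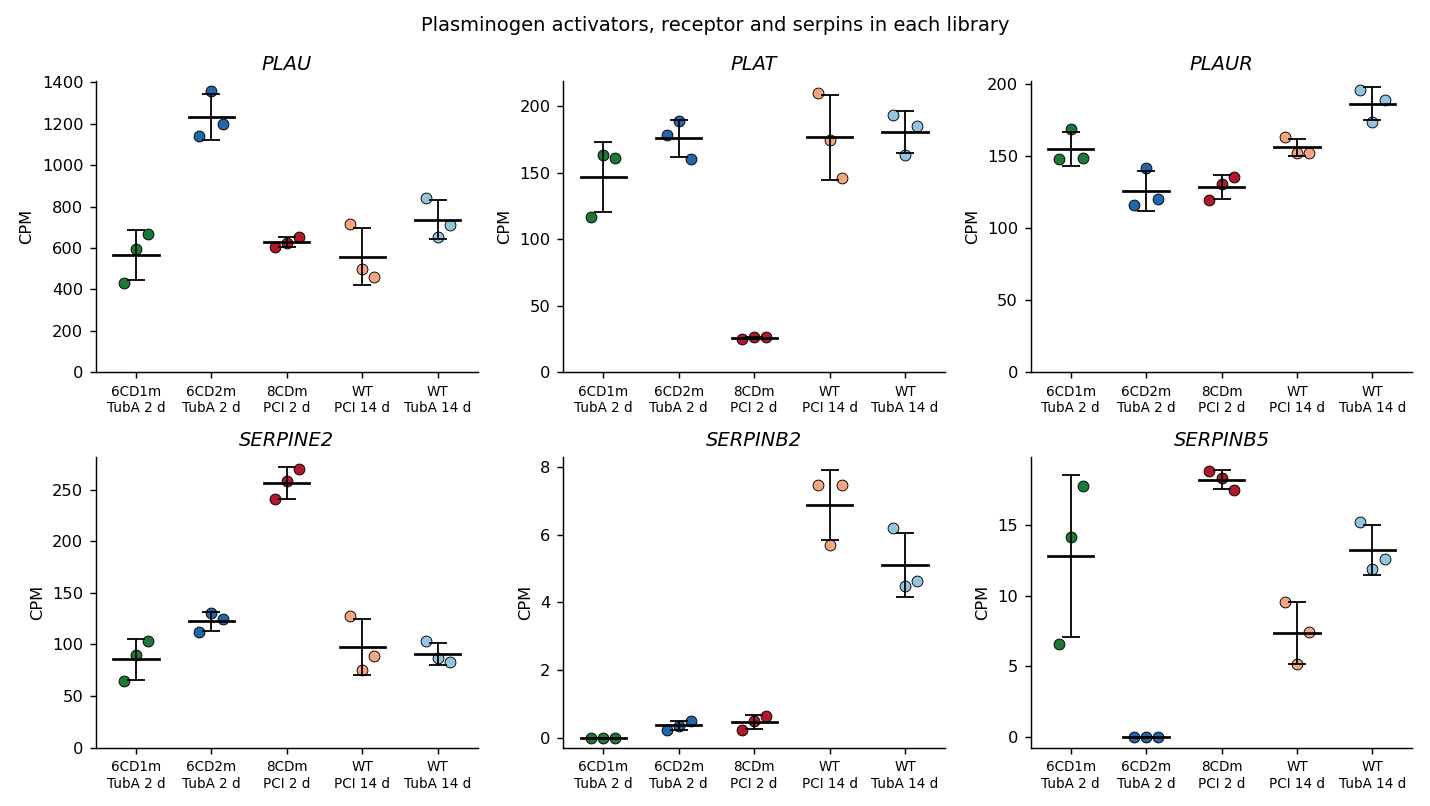
CPM of the 6 genes (y axis, linear, separate scale for each panel) in the 15 libraries (points) of the 5 groups (x axis), with the group mean (line) and SD (bars). PLAU is highest in 6CD2m cells, PLAT is lowest and SERPINE2 highest in 8CDm cells, SERPINB2 is near 0 in the 3 edited lines, and SERPINB5 is at 0 in 6CD2m cells.

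PLAU, the urokinase gene (ENSG00000122861, chr10:73909177-73917497, plus strand, GRCh38), had the highest level per kb of exon of the 6 in every group. Its levels were 1141, 1359.7 and 1198 CPM in 6CD2m cells and 430.5, 596 and 668 CPM in 6CD1m cells. All 3 libraries of 6CD2m cells were above every other library of the data set. The level was 1233 ± 113 CPM in 6CD2m against 565 ± 122 CPM in 6CD1m cells, a difference of 1.13 ± 0.17 (adjusted p = 0.00014), or 2.18-fold. Without the second 6CD2m library, the one with the highest level, the adjusted p was 0.00104 and the difference 1.05, just outside the threshold, and in a fit of only the 6CD2m and 6CD1m libraries the call ended as well (adjusted p = 0.0013). WT cells on Tubastatin A measured 840.0, 655 and 711 CPM, and none of these reached the 6CD2m values. The difference of 6CD2m from them, 0.75 ± 0.17, had an adjusted p of 0.0034 and was not called; it was called in 5 of 8 alternative analyses (4.1e-05 to 0.01). 8CDm cells measured 607, 625 and 652 CPM, and WT cells on PCI-34051 714, 496 and 461 CPM. These groups overlapped, and their difference of 0.17 ± 0.17 (adjusted p = 0.45) had a 95% interval of -0.19 to 0.54. PLAU was higher in 6CD2m than in 8CDm cells by 0.97 ± 0.17 (adjusted p = 0.00051), a call that ended in each fit with 1 library left out (adjusted p = 0.0015 to 0.0039). In order of mean level, 6CD2m came first without overlap. WT on Tubastatin A, with the next mean, overlapped with 6CD1m and WT on PCI-34051 cells, and 8CDm cells overlapped with these 2 groups as well. PLAU overlaps the antisense gene C10orf55, which measured 3.41 to 15.2 CPM with 4.97 ± 0.829 CPM in 6CD2m and 10.5 ± 4.10 CPM in 6CD1m cells. Whether reads were counted by strand is not given in the sources used here.

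PLAT, which encodes tissue-type plasminogen activator (ENSG00000104368, chr8:42175233-42207724, minus strand), was lower in 8CDm cells than in every other group. 8CDm cells measured 24.5, 26.0 and 26.4 CPM, and WT cells on the same inhibitor 209.7, 174 and 146 CPM. The 8CDm values lay within 2 CPM of each other and far below all 12 other libraries. The means were 25.7 ± 0.983 and 177 ± 32.0 CPM, a log2 difference of -2.78 ± 0.15 or 6.88-fold lower (adjusted p = 4.8e-09), and the call held in 8 of 8 alternatives and with each library left out. In contrast, 6CD2m cells (178, 189 and 161 CPM), 6CD1m cells (117, 163 and 161 CPM) and WT cells on Tubastatin A (194, 163 and 185 CPM) overlapped with each other and with WT cells on PCI-34051. The difference of 6CD2m from WT cells on Tubastatin A was -0.04 ± 0.14 (adjusted p = 0.87), with an interval of -0.34 to 0.26. Against 8CDm cells, 6CD2m cells were higher by 2.78 ± 0.15 (adjusted p = 3.5e-09). A direct test of whether the 6CD2m difference from WT cells was unlike the 8CDm difference, which used no library in common, gave 2.74 ± 0.20 (adjusted p = 2.1e-07), and 5.16% of all genes were called in this test.

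PLAUR, the urokinase receptor gene (ENSG00000011422, chr19:43646095-43670547, minus strand), varied least. WT cells on Tubastatin A measured 196, 174 and 189 CPM, above all libraries of the other groups. Values were 116, 142 and 120.0 CPM in 6CD2m and 119, 130.4 and 136 CPM in 8CDm cells, which overlapped with each other. In 6CD1m and PCI-34051-treated WT cells they were 148, 169 and 149 CPM and 163, 152 and 152 CPM, also overlapping. PLAUR was lower in 6CD2m than in WT cells on Tubastatin A, with a log2 difference of -0.57 ± 0.10 (126 ± 14.0 against 186 ± 11.5 CPM, adjusted p = 0.00033). This call ended without the first or the third 6CD2m library (adjusted p = 0.0039 and 0.0032) and without the first or the third WT library (0.002 and 0.0019), with GC offsets (0.0034) and in a fit of only the libraries compared (0.0014). In 6CD1m cells the difference from the same WT libraries was -0.26 ± 0.10 (adjusted p = 0.084), and in 8CDm cells, against WT on PCI-34051, -0.28 ± 0.10 (adjusted p = 0.034). Neither passed the threshold.

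SERPINE2 (ENSG00000135919, chr2:223975112-224039319, minus strand), the secreted protease nexin-1, rose in 8CDm cells. The 8CDm libraries measured 240.4, 258 and 270.3 CPM, and those of WT cells on PCI-34051 128, 75.5 and 89.2 CPM. The lowest 8CDm value was above the highest value of any other group. The difference from WT was 1.39 ± 0.18 or 2.63-fold (256 ± 15.05 against 97.5 ± 27.0 CPM, adjusted p = 3.9e-05), called in 8 of 8 alternatives and with each library left out. 6CD2m cells measured 112, 130.2 and 125 CPM, 6CD1m cells 64.4, 89.8 and 104 CPM and WT cells on Tubastatin A 103, 86.7 and 83.2 CPM. These 3 groups and WT on PCI-34051 overlapped in the order of their means. The 6CD2m difference from WT cells was 0.43 ± 0.18 (adjusted p = 0.084) and was not called. SERPINE2 was lower in 6CD2m than in 8CDm cells, by a log2 difference of -1.07 ± 0.18 (adjusted p = 0.00037), but not with any 1 library left out (0.0013 to 0.004). The test of the 6CD2m against the 8CDm difference gave -0.97 ± 0.25 (adjusted p = 0.014), which is not a call; without the first WT library on PCI-34051, the one with the highest SERPINE2 level of its group, it was -1.21 (adjusted p = 0.00082). 8CDm cells thus had a lower level of 1 secreted activator and a higher level of 1 secreted inhibitor than WT cells on PCI-34051, while PLAU and PLAUR were not called.

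SERPINB2 (ENSG00000197632, chr18:63871692-63903890, plus strand), the intracellular plasminogen activator inhibitor, was low in every edited line. The deposited counts were 140, 90 and 116 in WT cells on PCI-34051 and 112, 69 and 80 in WT cells on Tubastatin A. They were 4, 9 and 12 in 8CDm, 4, 7 and 9 in 6CD2m and 0, 0 and 0 in 6CD1m cells. No library of an edited line came near the lowest WT library. The level was 0.453 ± 0.210 CPM in 8CDm against 6.87 ± 1.03 CPM in WT cells, a log2 difference of -3.89 ± 0.34 or 14.9-fold lower (adjusted p = 2.4e-06). In 6CD2m cells it was 0.364 ± 0.132 against 5.10 ± 0.952 CPM, a log2 difference of -3.78 ± 0.35 or 13.7-fold lower (adjusted p = 3.2e-06). 6CD1m cells had 0 counts, which allows up to 0.224 CPM, and SERPINB2 was at least 22.7-fold lower there than in WT cells (adjusted p = 5.1e-06). Each of these 3 calls held with any 1 library left out. In a fit of only the 6CD1m and WT libraries on Tubastatin A the call ended. From the mean of 6CD2m cells, the bound was 1.62-fold higher than in 6CD1m cells (adjusted p = 0.00095), resting on 4 to 9 counts per library. The lowest 6CD2m library, at 0.237 CPM, was close to the 0.224 CPM that 0 counts allow. The call between these lines ended with the replicate number as a block (adjusted p = 0.0023), in a fit of only the libraries compared (0.016) and with any library left out (0.0013 to 0.0041). The 6CD2m and 8CDm levels overlapped (-0.31 ± 0.43, adjusted p = 0.66), and so did those of the WT groups (-0.43 ± 0.27, adjusted p = 0.30).

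SERPINB5 (ENSG00000206075, chr18:63476761-63505085, plus strand), the maspin gene, was not detected in 1 of the 5 groups. It had 0 counts in all 3 libraries of 6CD2m cells, among 16527866 to 19836640 counts per library, which allows up to 0.165 CPM. The counts were 78, 202 and 255 in 6CD1m cells, 276, 183 and 218 in WT cells on Tubastatin A, 179, 82 and 115 in WT cells on PCI-34051 and 331, 338 and 326 in 8CDm cells. The transcript was thus present in 4 groups and not detected in 6CD2m cells. SERPINB5 was at least 80.0-fold lower in 6CD2m than in WT cells on Tubastatin A (adjusted p = 2.2e-07). From the group means, the bounds were 77.6-fold against 6CD1m cells (adjusted p = 2.9e-07) and 110.1-fold against 8CDm cells (adjusted p = 9.9e-08). All 3 calls held with each library left out. The other catalytic-domain mutant of KDAC6 did not show this loss, with 12.8 ± 5.72 CPM in 6CD1m against 13.2 ± 1.79 CPM in WT cells (-0.04 ± 0.29, adjusted p = 0.94, 95% interval -0.66 to 0.58). The first 6CD1m library, at 6.57 CPM, was well under the other two. 8CDm cells held the highest level, 18.2 ± 0.678 CPM, above all libraries of WT cells on PCI-34051 (7.38 ± 2.18 CPM), with a difference of 1.30 ± 0.29 that was not called (adjusted p = 0.0039). The test of the 6CD2m against the 8CDm difference called SERPINB5 (adjusted p = 4.2e-07), with a log2 difference of at most -7.62.

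**Figure D2:**
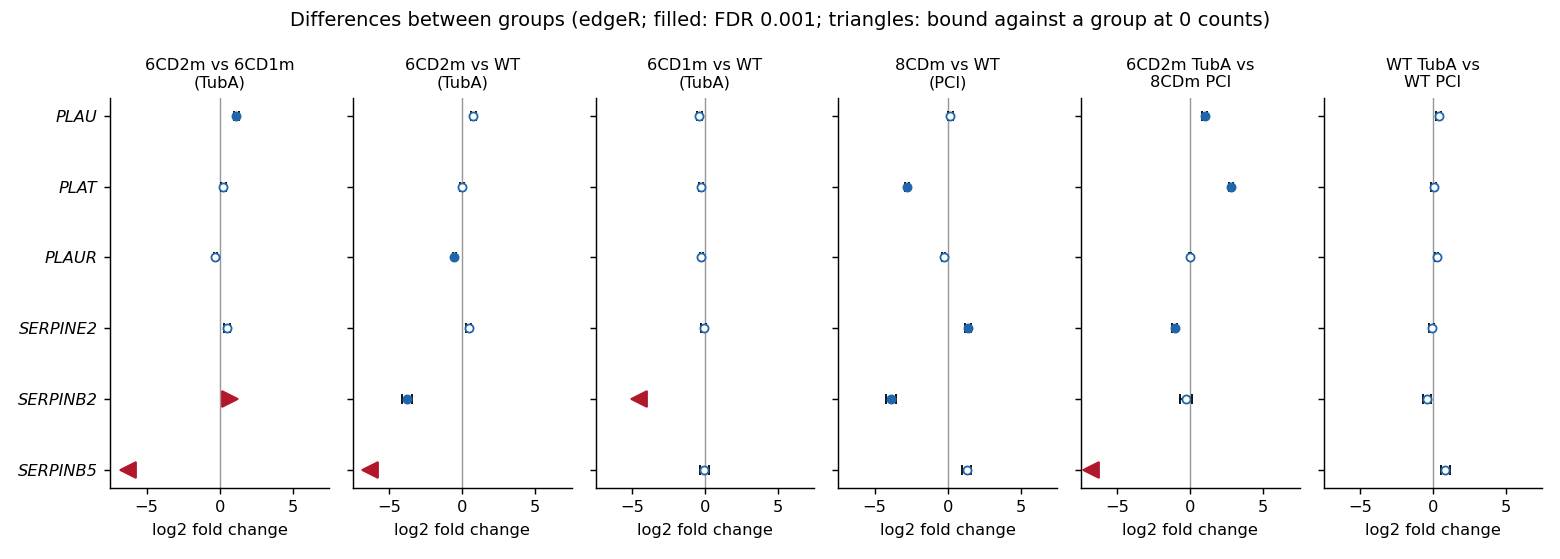
Log2 fold change (x axis) of each gene (rows) in 6 comparisons (panels), with SE bars that are often narrower than the symbols. Filled symbols were called at an FDR of 0.001, and triangles are bounds against a group with 0 counts, such as at least 80.0-fold lower SERPINB5 in 6CD2m than in WT cells; the panel of WT cells on either inhibitor holds no filled symbol.

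SERPINB2 and SERPINB5 belong to the clade B serpin cluster at 18q21, and the remaining clade B genes lie at 6p25. Of 10 genes listed for 18q21, 4 were tested. SERPINB8, an intracellular inhibitor of furin-like proteases, was also lower in 6CD2m than in WT cells on Tubastatin A (14.8 ± 1.43 against 56.1 ± 8.00 CPM, -1.92 ± 0.18, adjusted p = 1.2e-06). SERPINB7, best known from the epidermis, was not called there (-0.77 ± 0.28, adjusted p = 0.046). Thus 3 of 4 tested genes of the cluster were lower in 6CD2m cells, with a median of -2.85 against -0.01 over all genes, which is the same with SERPINB5 at its bound. Over all genes 7.22% were lower there, and SERPINB2 and SERPINB5 of the set are among the 3. In 8CDm cells the same cluster moved in both directions, as SERPINB7 was 11.9-fold higher (51.7 ± 8.46 against 4.29 ± 1.10 CPM, adjusted p = 6.8e-07) beside the lower SERPINB2 (median 0.54 against -0.04 over all genes). In 6CD1m cells edgeR called SERPINB2 alone among the 4 (median -1.31), whereas DESeq2 called 3 of the 4. At 6p25, SERPINB1, an inhibitor of neutrophil proteases, separated the KDAC6 lines, with 19.4 ± 0.654 CPM in 6CD2m, 2.08 ± 0.354 CPM in 6CD1m and 6.09 ± 0.199 CPM in WT cells on Tubastatin A. It was higher in 6CD2m (1.67 ± 0.18, adjusted p = 4.2e-06) and lower in 6CD1m (-1.54 ± 0.21, adjusted p = 0.00035) than in WT cells. The other tested gene at 6p25, SERPINB6, was not called by edgeR in these comparisons, although DESeq2 called 2 of 2 genes in each edited line against WT cells, and the median of the pair was 0.67 in 6CD2m, -0.95 in 6CD1m and 0.31 in 8CDm cells. Of all 19535 genes, DESeq2 called 3642 in 6CD2m, 594 in 6CD1m and 3841 in 8CDm cells, each against WT cells.

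**Figure D3:**
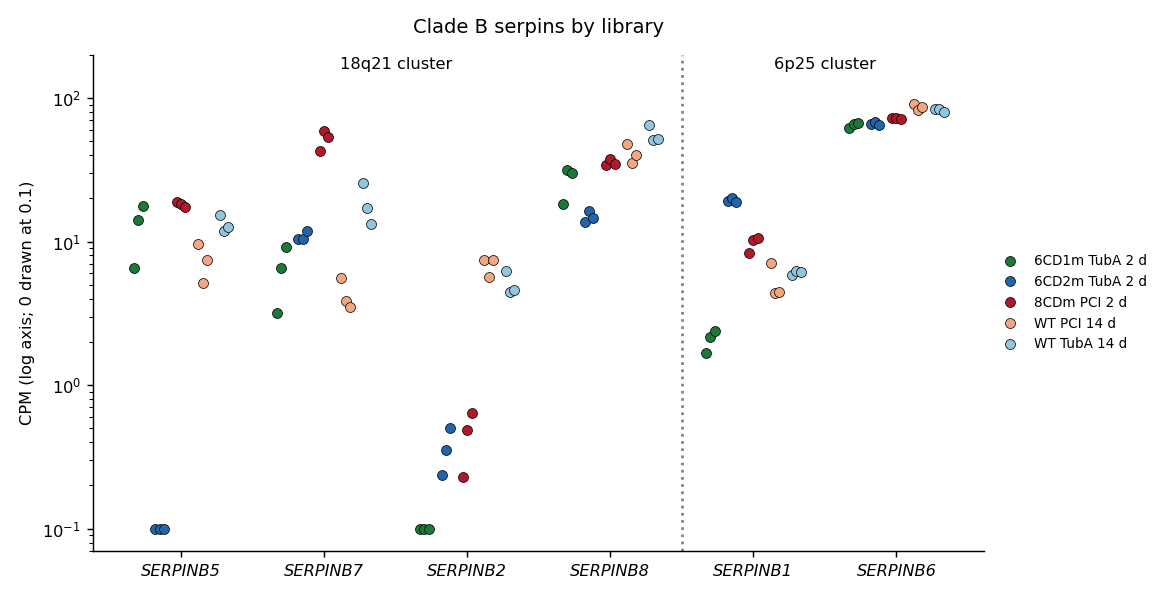
CPM of 6 clade B serpins (y axis, log scale, with 0 drawn at 0.1) in each library (points, colored by group), those of 18q21 on the left and those of 6p25 on the right. SERPINB5 is at 0 in 6CD2m cells, where SERPINB1 is at its highest (19.4 CPM on average), and SERPINB7 is highest in 8CDm cells (51.7 CPM).

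Because SERPINB2 and SERPINB5 share a chromosome, the other genes of that chromosome were put beside them. Over 191 tested protein-coding genes of chromosome 18, the median log2 difference of 6CD2m cells from WT cells on Tubastatin A was -0.79, against -0.01 over all genes. It was -0.33 in 6CD1m and 0.12 in 8CDm cells, each against WT cells on the same inhibitor. Within 2 Mb of SERPINB5, 12 genes had a median of -1.17 in 6CD2m cells, and 8 of the 12 were called, all lower. Over all genes, 7.22% were called lower in this comparison. SERPINB2 and SERPINB8 are themselves among the 8 and enter this median and count. The 8 also include the apoptosis inhibitor BCL2 (-1.43 ± 0.10, adjusted p = 5.4e-08), the sorting ATPase VPS4B (-1.01 ± 0.14, adjusted p = 4.4e-05) and the RANK receptor gene TNFRSF11A (-2.00 ± 0.12, adjusted p = 8.9e-09), named here after their values were seen. The lower level along chromosome 18 thus moved with the lower SERPINB5, SERPINB2 and SERPINB8 in 6CD2m cells, and its part in them was not tested. In 6CD1m cells the 13 genes within 2 Mb of SERPINB2 had a median of -0.39, and the lowest of them was SERPINB7 (-1.55, adjusted p = 0.0061). SERPINB2 was also lower in the other edited lines, where the median of the 13 was -1.32 in 6CD2m cells (0 higher, 8 lower) and 0.29 in 8CDm cells (2 higher, 3 lower). Around PLAT in 8CDm cells, 19 genes had a median of 0.04, with 2 higher and 1 lower, so the neighbors of PLAT did not show its fall. Within 2 Mb of SERPINE2, 9 genes had a median of 0.24 in 8CDm versus WT cells. Around PLAU, 37 genes had a median of 0.14 between 6CD2m and 6CD1m cells, with 2 higher and 1 lower.

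**Figure D4:**
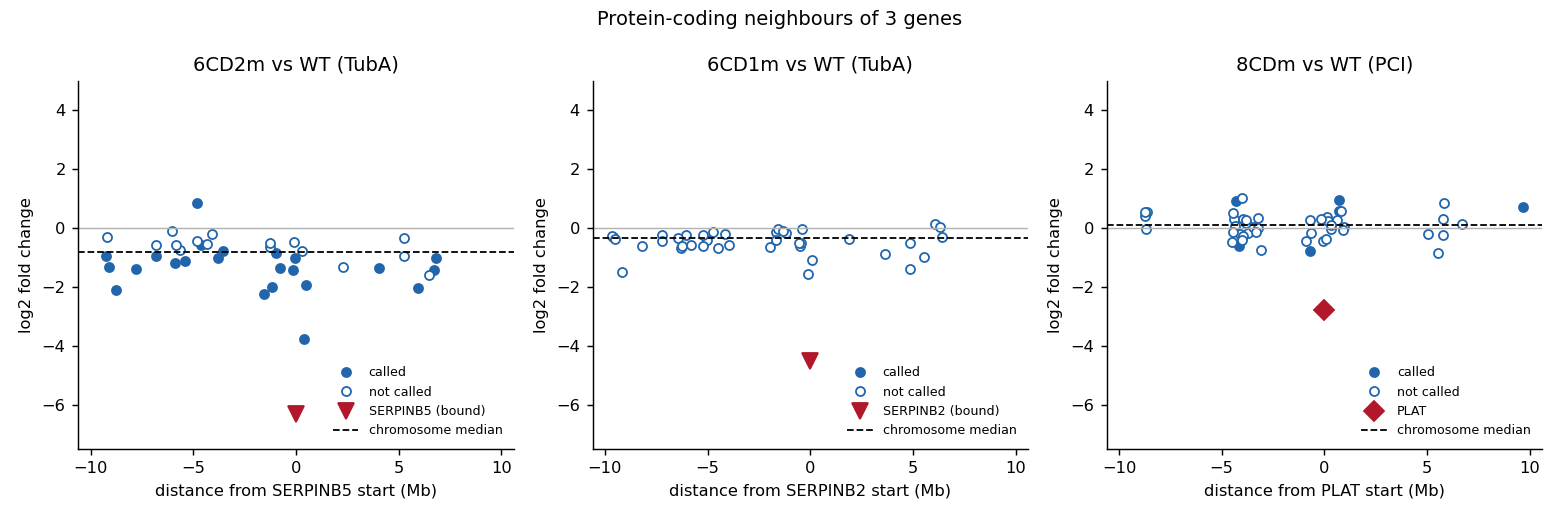
Log2 fold change (y axis) of tested protein-coding genes with a mean of at least 1 CPM (circles, filled when called) against their distance in Mb from SERPINB5, SERPINB2 or PLAT (x axis), each in 1 comparison where that gene was lower. SERPINB2 was also lower in 6CD2m and 8CDm cells. Red symbols show the gene itself (triangles are bounds) and the dashed line the median of its chromosome, at -0.79 for SERPINB5 in 6CD2m, -0.33 for SERPINB2 in 6CD1m and 0.11 for PLAT in 8CDm cells.

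Levels were set between genes only per kb of exon, with all GENCODE 29 exons of a gene merged (2950 bases for PLAU, 6618 for PLAT and 8891 for SERPINE2). The transcripts made by the cells can be shorter than this, so the size of a ratio between genes depends on the length used. For genes with like levels, the order can depend on it too. On that scale PLAU ran from 189 ± 46.4 CPM per kb in WT cells on PCI-34051 to 418 ± 38.4 in 6CD2m cells. PLAUR lay between 28.2 ± 3.14 and 41.8 ± 2.58 CPM per kb, PLAT between 3.88 ± 0.149 and 27.3 ± 2.38, and SERPINE2 between 9.66 ± 2.23 and 28.8 ± 1.69. SERPINB5 did not exceed 4.63 ± 0.172 and SERPINB2 did not exceed 2.50 ± 0.374 CPM per kb. On this scale PLAU was thus above PLAT in every library, by a ratio of 7.04 ± 0.630 in WT cells on PCI-34051 and 9.12 ± 0.565 in WT cells on Tubastatin A. The ratio was 8.59 ± 0.630 in 6CD1m, 15.8 ± 1.22 in 6CD2m and 54.9 ± 0.861 in 8CDm cells, and the ranges of the last 2 overlapped with no other group. The ratio of PLAT to its secreted inhibitor SERPINE2 was 0.135 ± 0.00299 in 8CDm cells, so that SERPINE2 had the higher level per kb in these cells. In the other groups PLAT was above SERPINE2 on this scale, with ratios of 1.94 ± 0.199 in 6CD2m, 2.32 ± 0.203 in 6CD1m, 2.68 ± 0.269 in WT cells on Tubastatin A and 2.50 ± 0.519 in WT cells on PCI-34051.

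**Figure D5:**
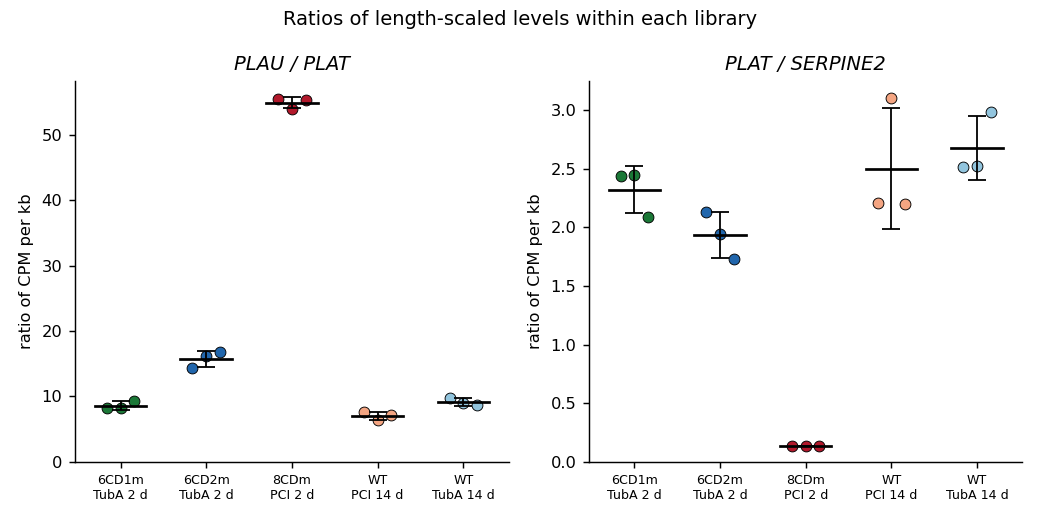
Ratios of CPM per kb within each library (points; lines are means and bars SD of 3 libraries) for PLAU over PLAT and PLAT over SERPINE2 (y axes, linear, from 0) by group (x axis). The PLAU to PLAT ratio is 54.9 in 8CDm cells and 15.8 in 6CD2m cells, and the PLAT to SERPINE2 ratio is lowest in 8CDm cells, at 0.135.

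Other genes of the pathway were taken from lists of receptors, inhibitors and proteases. Plasminogen (PLG) had at most 6 counts in any library. Of 10 genes for plasminogen, its receptors and clearance, 8 were tested. LRP1, the endocytic receptor that clears activator and inhibitor complexes, was higher in 8CDm than in WT cells on PCI-34051 (1183 ± 77.7 against 652 ± 43.4 CPM, 0.86 ± 0.08, adjusted p = 2.2e-06) and higher in 6CD2m than in 6CD1m cells (0.56 ± 0.08, adjusted p = 0.00011). MRC2, a collagen receptor that associates with PLAUR, was lower in 6CD2m than in WT cells on Tubastatin A (188 ± 15.4 against 278 ± 32.5 CPM, -0.56 ± 0.11, adjusted p = 0.00093). The list median was -0.16 in 6CD2m and 0.02 in 8CDm cells, each against WT cells, beside -0.01 and -0.04 over all genes. In 6CD1m versus WT cells edgeR called 0 of 8 (4 at an unadjusted p under 0.05, 0 by DESeq2). Of all 19535 genes there, 6247 had an unadjusted p under 0.05 and DESeq2 called 594. Of 6 other inhibitors of plasminogen activators or plasmin, 3 were tested. SERPINF2, the plasmin inhibitor, was called higher in 6CD2m than in WT cells at 1.05 ± 0.332 against 0.198 ± 0.0892 CPM, and SERPINI1, neuroserpin, was called higher in 8CDm than in WT cells at 1.62 ± 0.628 against 0.366 ± 0.132 CPM. These calls rest on 2 to 28 and on 5 to 43 counts per library. The list medians were 1.93 in 6CD2m and 1.70 in 8CDm cells.

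Among 9 other serpins, 5 were tested. SERPINH1, the collagen chaperone of the endoplasmic reticulum, was higher in 6CD2m cells than in 6CD1m (274 ± 18.1 against 103 ± 0.344 CPM, 1.41 ± 0.10, adjusted p = 4.7e-08), WT (1.23 ± 0.09, adjusted p = 1.6e-07) and 8CDm cells (0.63 ± 0.09, adjusted p = 0.0001). SERPINF1, an anti-angiogenic factor, was higher in 6CD2m and in 8CDm than in the matching WT cells, at 2.50 ± 0.534 and 2.50 ± 0.638 CPM. SERPINA1 (higher) and SERPINE3 (lower) were called in 8CDm versus WT cells, at 1.34 ± 0.453 against 0.159 ± 0.0304 CPM and at 0.0549 ± 0.00176 against 1.16 ± 0.304 CPM, with 1 group of each pair at the floor. The list medians were 1.23 in 6CD2m and 0.18 in 8CDm cells. Of 11 other pericellular proteases, 5 were tested, and CTSD, the lysosomal aspartic protease cathepsin D, was the 1 call, lower in 8CDm than in WT cells (182 ± 10.0 against 346 ± 38.9 CPM, -0.93 ± 0.12, adjusted p = 2.4e-05), where the list median was -0.51 against -0.04 over all genes.

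AP-1 and ETS factors are known regulators of urokinase and of its receptor, and 10 of 10 listed genes were tested. The list, with its counts and medians, also includes EGR1, which belongs to neither family. In 6CD2m versus WT cells on Tubastatin A, JUN (-0.71 ± 0.11, adjusted p = 0.00016), FOSL1 (-0.76 ± 0.12, adjusted p = 0.00012) and ETS2 (-0.85 ± 0.11, adjusted p = 3.7e-05) were lower, and ETS1 was higher (0.67 ± 0.12, adjusted p = 0.00067). The median of the list was -0.60, against -0.01 over all genes. The same 4 genes were called in the same directions in 6CD2m versus 6CD1m cells, although the median there was 0.26. Over all genes, 7.22% were lower and 4.6% higher in 6CD2m versus WT cells, and 6.54% and 6.65% in 6CD2m versus 6CD1m cells. In 8CDm versus WT cells, ETS1 and ETS2 were higher (1.18 ± 0.12 and 0.72 ± 0.11) and FOSL1 was lower (-1.18 ± 0.12, adjusted p = 2.4e-06), beside 4.7% of all genes higher and 6.27% lower. ETS2 thus lay on opposite sides of WT cells in these lines, and the test of that contrast called it (-1.58 ± 0.16, adjusted p = 6.0e-06). In 6CD1m versus WT cells edgeR called 0 of 10, with 5 at an unadjusted p under 0.05 and 3 called by DESeq2. Over all 19535 genes in that comparison, 6247 had an unadjusted p under 0.05 and DESeq2 called 594.

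The profile of each gene over the 15 libraries was set beside those of all tested genes, as a description that rests on 5 groups and carries no p. PLAU ran closest to the receptor tyrosine kinase gene MET (Pearson r = 0.986 of log2 CPM), the RNA-binding protein gene QKI (0.977) and EXT2 (0.975), a heparan sulfate polymerase gene. MET, like PLAU, was highest in 6CD2m cells (581 ± 70.7 CPM, against 214 ± 77.9 CPM in 6CD1m cells). PLAT ran closest to THBS2 (0.991), which encodes the matrix protein thrombospondin 2 and measured 0.292 ± 0.0761 CPM in 8CDm against 197 ± 23.5 CPM in WT cells on PCI-34051. It was followed by RPS4Y1 (0.991) and NLGN4Y (0.990), both on chromosome Y, whose levels are not given. For PLAUR the closest were RNASEH2A (0.956), DHCR7 (0.954) and CDK4 (0.952), and for SERPINE2 they were PARD3 (0.972), C2orf49 (0.969) and CREBRF (0.964). SERPINB5 ran with PTCHD1 (0.992; 0.0754 ± 0.0846 CPM in 6CD2m against 8.18 ± 1.99 CPM in WT cells on Tubastatin A), TBC1D4 (0.980) and LINC01029 (0.976), the last of which is also on chromosome 18. SERPINB2 had the loosest partners in its list, PDE4DIP (0.952), SERPINB6 (0.950) and RP11-680F8.1 (0.947). SERPINB6, a clade B serpin of 6p25, measured 86.7 ± 3.96 and 82.9 ± 2.24 CPM in the WT groups and 64.8 ± 2.60, 66.3 ± 1.73 and 72.2 ± 0.683 CPM in 6CD1m, 6CD2m and 8CDm cells, so that its WT libraries were above all others, like those of SERPINB2.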

How the data were processed

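For each of 60675 genes in 15 libraries of rRNA-depleted RNA, the authors deposited an expected count, which is estimated by RSEM and can be fractional. Per the labels, the tools included Trimmomatic 0.39, Bowtie2 2.4.5, RSEM 1.3.3 and DESeq2 1.38.2, with the GRCh38 build, and the gene annotation is not given in the sources used here. Of the nonzero values 21.8% were not whole (tolerance 1e-06), and all were rounded. Library totals ran from 10932455 to 19983710 counts, and the common biological coefficient of variation was 16.4%.

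The sample labels gave the groups and the replicate numbers. Counts were analyzed with edgeR 4.0.16 (filterByExpr, TMM, glmQLFit, glmQLFTest) in R 4.3.3 in 1 model with a mean for each of 5 groups, with Benjamini-Hochberg adjustment over 19535 genes at the study's false discovery rate of 0.001. SE are those of the fitted log2 fold changes. Positions and exon lengths were those of GENCODE 29, which matched 57055 genes, and promoter windows came from RefSeq. Libraries with the same replicate number, treated as pairs, deviated together in 6CD2m versus 6CD1m (r = 0.400, 0.110 and 0.174) and in WT versus WT cells (r = 0.757, 0.453 and 0.425). In 6CD2m versus 8CDm cells r was 0.291, 0.251 and -0.029. It was negative for every replicate number in each edited line versus WT cells, from -0.683 in 6CD1m to -0.055 in 8CDm cells.

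The alternatives were DESeq2 1.42.0, upper-quartile scaling, no filter, at least 10 counts in every library, an FDR of 0.05, a minimum change of 2-fold (1 on the log2 scale), the replicate block, only the libraries compared, leaving out each library, and, added after seeing the data, GC offsets with and without the block. The 8 alternatives counted for a gene exclude the left-out libraries and the changes of threshold. Intervals use the degrees of freedom of the test. The code was tested on simulated data. Genes named from other lists, up to 4 per list, were those called in most comparisons, and the likest genes were the 3 with the highest Pearson r of log2 (CPM + 0.5). The 6 genes and all lists were chosen with earlier results of these data known. 1 gene of the list of other inhibitors is not reported here.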

Additional observations from a re-analysis of the deposited data

Results flagged for a closer look

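For PLAT and SERPINB5, the 6CD2m cells' difference from WT cells on Tubastatin A was unlike that of 8CDm from WT cells on PCI-34051 in a direct edgeR test of the contrast. PLAT, the tissue-type activator gene, gave 2.74 ± 0.20 on the log2 scale (adjusted p = 2.1e-07), because its level was 178, 189 and 161 CPM in 6CD2m cells and 24.5, 26.0 and 26.4 CPM in 8CDm cells. It was called in 8 of 8 alternatives and in 12 of 12 fits with 1 library left out. SERPINB5, the maspin gene, gave a log2 difference of at most -7.62 (adjusted p = 4.2e-07), with 0 counts in each 6CD2m library and 331, 338 and 326 counts in 8CDm cells. It was called in 7 of 8 alternatives, as the filter of at least 10 counts in every library removes it, and in 12 of 12 fits with 1 library left out. Inhibitor, mutated gene and cell line changed together in this contrast and cannot be told apart.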

How the results depend on the processing

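Each gene's log2 fold change was recomputed under every alternative, giving 694 values for 42 results. Of these 609 kept their direction and their side of the threshold, 38 lost the call, 15 gained it and 32 changed sign, and 0 of the 32 had been called. An FDR of 0.05 called 5 in place of 3 of the 6 genes in 6CD2m versus 6CD1m and 5 in place of 3 in 8CDm versus WT cells. The filter of at least 10 counts in every library removes SERPINB2 and SERPINB5, and left 0 calls in 6CD1m versus WT cells and 1 each in 6CD2m versus 6CD1m and in the test of the 6CD2m against the 8CDm difference. Only the libraries compared gave 0 calls in 6CD1m versus WT and 1 in 6CD2m versus 6CD1m cells. With 1 library left out, 1 to 2 genes were called in 6CD2m versus 6CD1m, 2 in 6CD2m versus 8CDm, 2 to 3 in 6CD2m versus WT and 2 to 3 in the test of both differences. With replicate 1, 2 or 3 left out of all groups, the joint test called 3 to 6 (3 without replicate 2 and 3 without replicate 3). Other than where a filter removed the gene, the causes were not tested.

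With the replicate number as a block, 2 genes were called in 6CD2m versus WT, 2 in 6CD2m versus 6CD1m, 2 in 6CD2m versus 8CDm cells and 5 in the joint test. The calls that ended were PLAUR in 6CD2m versus WT (adjusted p = 0.0012), SERPINB2 in 6CD2m versus 6CD1m (0.0023), and PLAU (0.0021) and SERPINE2 (0.0015) in 6CD2m versus 8CDm cells. Over all 19535 genes the block gave 1704 for 2309 calls in 6CD2m versus WT and 1722 for 2577 in 6CD2m versus 6CD1m cells. It gave 1445 for 1946 in 6CD2m versus 8CDm cells and 3368 for 4807 in the joint test. In the other comparisons it gave 76 for 155 in 6CD1m versus WT, 1411 for 2142 in 8CDm versus WT and 27 for 82 in WT versus WT cells.

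The sign changes concern differences near 0. PLAT in 6CD2m versus WT cells (-0.04) became 0.048 with upper-quartile scaling, 0.0025 with at least 10 counts, 0.0004 in DESeq2, 0.0085 with GC offsets and 0.0040 with the replicate block added to these (-0.095 to 0.022 with 1 library left out). PLAT in WT versus WT cells (0.03) became -0.042, -0.014, -0.083 and -0.079 under the same settings without DESeq2 (-0.089 to 0.174). In 6CD1m versus WT cells, SERPINE2 (-0.08) became 0.028 with upper-quartile scaling, 0.114 with GC offsets and 0.112 with the block added (-0.239 to 0.085), and SERPINB5 (-0.04) became 0.066, 0.129 and 0.116 (-0.343 to 0.270). PLAUR in 6CD2m versus 8CDm cells (-0.03) became 0.019 with upper-quartile scaling and 0.0062 with at least 10 counts (-0.125 to 0.038). With 1 library left out, SERPINE2 in WT versus WT cells ran from -0.252 to 0.145, SERPINB2 in 6CD2m versus 8CDm cells from -0.621 to 0.022, and SERPINB2 in the test of both differences from -0.190 to 0.453.

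Over all genes, edgeR called 2309 in 6CD2m versus WT, 155 in 6CD1m versus WT, 2577 in 6CD2m versus 6CD1m, 2142 in 8CDm versus WT, 82 in WT versus WT, 1946 in 6CD2m versus 8CDm, 1008 in the test of both differences and 4807 in the joint test. In the same order, DESeq2 called 3642, 594, 4272, 3841, 675, 3104, 1959 and 8599, and an FDR of 0.05 gave 6409, 1847, 7884, 7059, 1851, 5167, 3767 and 12083. A 2-fold minimum left 1347, 1443, 1143, 48 and 1242 in these comparisons, leaving out 6CD1m versus WT and both joint tests. Only the libraries compared gave 12, 1043, 768, 1 and 4082 from 6CD1m versus WT to 6CD2m versus 8CDm cells. In 6CD1m versus WT, WT versus WT and the joint test, no filter gave 428, 320 and 7331. At least 10 counts gave 101 in 6CD1m versus WT, and GC offsets gave 272 there and 217 in WT versus WT cells. The joint test gave 9024, 581 and 744 without replicates 1, 2 and 3. Upper-quartile scaling moved the median of all genes from -0.01 to 0.10 in 6CD1m versus WT cells and from 0.0042 to 0.13 in the test of both differences.

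A group at 0 counts allows a bound only, and SERPINB2 in the edited lines rests on 0 to 12 counts per library. Each mutation was measured in 1 line, so the line and the mutation cannot be told apart.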
